A study of Mus musculus with 2 samples.

Results

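Among 9927 adrenal endothelial-sorted cells, 103 carried transcripts of at least 2 of the 5 genes Vwf, Bmp4, Cp, Samd5 and Fmo2, and these cells are described here. Barcodes had to hold 500 or more UMIs (unique transcript counts) and 300 or more genes, with mitochondrial UMIs no higher than 15%. A cell also needed fewer than 2 of the lymphatic genes Lyve1, Mmrn1, Ccl21a, Prox1 and Reln, and none of the myeloid genes C1qa, C1qb and Tyrobp. Of 111 cells with at least 2 of the 5 genes, 5 were left out for lymphatic and 3 for myeloid transcripts. The cells were chosen by the detection of these 13 genes, so their values are given as a description and support nothing. The cells had been proposed as large-vein-type endothelium. Their transcripts did not settle this label. In the 31 cells with at least 2 of Vwf, Bmp4 and Cp, a list of venous genes without these stood at 4453 CPM (UMIs per 1000000 UMIs summed over the cells) against 2101 CPM in other cells, but a list of arterial genes stood at 2769 against 1334 CPM. Of the 2769 CPM, the matrix genes Mgp, Fbln5 and Eln gave 499, 440.4 and 372 CPM, against 27.1, 54.6 and 30.5 CPM in other cells. Venular-type cells stood at 4172 CPM of the venous list and arterial-type cells at 7717 CPM of the arterial list. Both types, described below, were chosen in part by genes of these lists. In the 40 cells with Samd5 and Fmo2 alone both lists lay below the other cells, at 1654 and 949 CPM, and Cd36, Gpihbp1 and other transcripts of continuous capillaries were high. These sets were themselves drawn up after the levels of other genes had been seen. The cells are therefore called by their genes throughout.

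The lining of a large vein differs from that of a capillary. Venous endothelium stores von Willebrand factor (encoded by Vwf) together with P-selectin (Selp) in its Weibel-Palade bodies, carries the chemokine-binding receptor Ackr1 and the leukocyte adhesion molecule Vcam1 where white cells leave the blood, and sits on a wall rich in elastic matrix. In the adrenal gland, sinusoidal capillaries with a fenestrated lining run through the cortex into the medulla and drain into a central vein. Continuous capillaries, which lack the diaphragm protein Plvap, take up fatty acids through Cd36 and the lipoprotein lipase anchor Gpihbp1.

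The cells came from 2 libraries of female mice aged 12 weeks, 1 of wild type (WT) and 1 labelled VEGF/LysM. LysM is a name of Lyz2, a gene of myeloid cells, but the labels state no allele or Cre for this genotype, nor how many mice were pooled. The tissue was dissociated in the cold with a protease, and living cells positive for CD31 and negative for CD45 were sorted, so shares of cells depend on what the digestion released and the sort kept. With 1 library per genotype nothing was tested: no p-value is given, and intervals are exact 95% intervals that cover counting error only (Poisson for UMIs, Clopper-Pearson for shares of cells).

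The libraries differed in depth. Cells other than the 103 had a median of 1188 UMIs and 875 genes in WT (6099 cells) and 2331 UMIs and 1458 genes in VEGF/LysM (3725 cells). The 35 WT cells with at least 2 of the 5 genes had a median of 1468 UMIs (733 to 8393) and the 68 VEGF/LysM cells 3643.5 UMIs (1049 to 23824). They were deeper than the other cells of their library, as detection of 2 low-level genes favours, and 12 of them, all WT, lay under 1000 UMIs. VEGF/LysM cells contributed 82.1% of the 384732 UMIs, and the deepest cell 6.19%. The libraries shared 10 barcodes, 1 of them among the 103 cells.

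Cells with at least 2 of the 5 genes were a small share of both libraries: 35 of 6134 cells in WT (0.571%, 0.398 to 0.793) and 68 of 3793 in VEGF/LysM (1.79%, 1.39 to 2.27). The intervals did not overlap, but depth moved with the genotype. After each cell had been thinned at random to 1000 UMIs, 9 of 3993 cells in WT (0.225%, 0.103 to 0.427) and 20 of 3503 in VEGF/LysM (0.571%, 0.349 to 0.880) met the rule, and the intervals overlapped. The VEGF/LysM share stayed the higher one. Only 29 cells were left in place of 103, so the overlap is not read as equal shares. Thinning left out 2141 WT and 290 VEGF/LysM cells for lack of depth. For the cells with at least 2 of Vwf, Bmp4 and Cp, 11 in WT (0.179%) and 20 in VEGF/LysM (0.527%), the thinned counts were 4 and 3 (0.100% and 0.0856%). The cells with Samd5 and Fmo2 only numbered 19 in WT (0.310%) and 21 in VEGF/LysM (0.554%), and 3 and 6 after thinning (0.0751% and 0.171%). The largest thinned gap was in the 32 cells that paired 1 of Vwf, Bmp4 and Cp with Samd5 or Fmo2: 5 in WT (0.0815%) and 27 in VEGF/LysM (0.712%), and 2 and 11 after thinning (0.0501% and 0.314%). Whether the genotype changes the number of these cells was not tested.

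**Figure D1:**
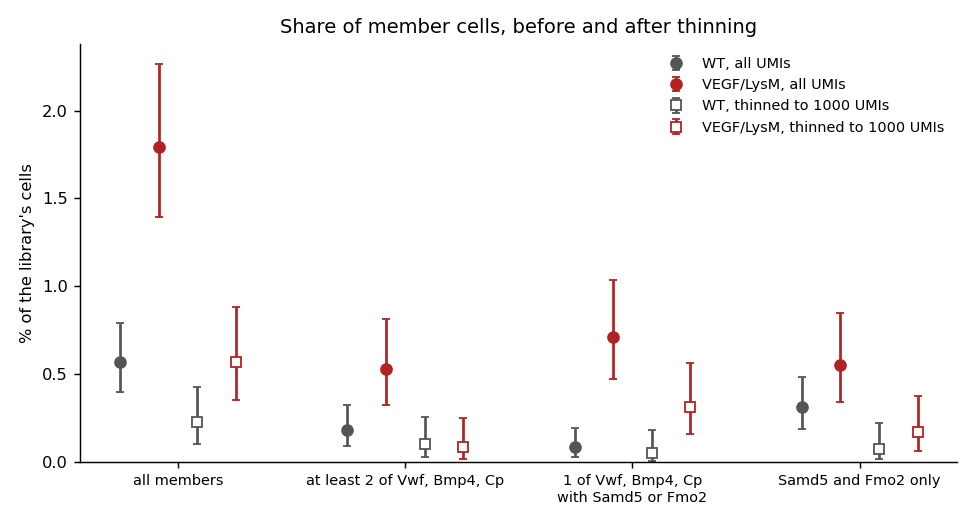
Share of each library's cells (%, y axis) that had at least 2 of the 5 genes, in all and by set, with exact 95% intervals; filled circles use all UMIs and open squares cells thinned to 1000 UMIs. All UMIs gave 0.571% in WT and 1.79% in VEGF/LysM, thinned cells 0.225% and 0.571%, and the thinned shares of cells with at least 2 of Vwf, Bmp4 and Cp were 0.100% and 0.0856%.

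The 5 genes were each found in a part of the 103 cells. Vwf, the platelet-tethering glycoprotein (chromosome 6, 125546774 to 125686679, plus strand; coordinates here and below are from GRCm38/mm10), was detected in 39 cells (37.9%, 28.5 to 48.0). Its level was 290.3 CPM among the WT cells and 209 CPM among the VEGF/LysM cells. Bmp4, a secreted ligand of the bone morphogenetic protein family (chromosome 14, 46383520 to 46390669, minus strand), was detected in 30 cells, at 131 CPM in the WT and 123 CPM in the VEGF/LysM cells. Cp, the copper-carrying ferroxidase ceruloplasmin (chromosome 3, 19957054 to 20009145, plus strand), was detected in 32 cells, at 247 and 108 CPM. Samd5, which encodes a protein with a sterile alpha motif (chromosome 10, 9622936 to 9675208, minus strand), was detected in 68 cells, at 450.0 and 222 CPM. Fmo2, a flavin-containing monooxygenase (chromosome 1, 162874317 to 162898726, minus strand), was detected in 72 cells, at 653 and 310.3 CPM. Each level was higher in WT. The intervals of Vwf, Bmp4 and Cp overlapped between the libraries (Bmp4, 59.7 to 248 CPM in WT and 87.8 to 169 CPM in VEGF/LysM). Those of Samd5 and Fmo2 did not (Fmo2, 476 to 874 CPM in WT and 252 to 378 CPM in VEGF/LysM). The cells were chosen by these genes and the WT cells were shallower, so the levels are not read as a genotype difference. The part of depth in them was not tested.

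Outside the 103 cells the same transcripts were rare. Among 9824 other cells (median 1474 UMIs), Vwf was found in 65 (0.662%), Bmp4 in 29 (0.295%), Cp in 90 (0.916%), Samd5 in 165 (1.68%) and Fmo2 in 187 (1.90%). Myeloid-type cells that passed the sort were set beside them. Of 101 such cells with a median of 3474 UMIs, 3 had Vwf (2.97%) and 0 had Bmp4 (which allows up to 3 of 101 cells). Cp was found in 6 (5.94%), Samd5 in 4 (3.96%) and Fmo2 in 4 (3.96%). These cells also held a list of pan-endothelial genes at 5723 CPM, against 10807 CPM in other cells. Whether their counts of the 5 genes came from free RNA, mixed cells or their own expression was not tested. Apart from Bmp4, the shares in other cells were below those of the myeloid-type cells, at a lower depth. The shares over all other cells are not read as expression. The other cells include 20 lymphatic-type cells, described below, of which 11 had 1 or more of the 5 genes. After thinning, 98 myeloid-type cells held Vwf in 0, Cp in 1 and Fmo2 in 2 cells, against 22, 15 and 35 of 91 thinned cells with at least 2 of the 5 genes. The 91 cells had been chosen at full depth by these same genes, so the direction of this difference was fixed beforehand and shows nothing about expression.

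Most cells met the rule narrowly. Exactly 2 of the 5 genes were found in 76 cells, 3 in 21, 4 in 4 and all 5 in 2, both of them VEGF/LysM cells. Just outside the rule lay 489 cells with exactly 1 of the 5 genes (median 2057 UMIs), of which 32.3% had Samd5, 35.8% Fmo2, 14.7% Cp, 12.1% Vwf and 5.11% Bmp4. Just inside, the 76 cells with exactly 2 (median 2581 UMIs) had Samd5 in 64.5%, Fmo2 in 68.4%, Vwf in 25%, Cp in 22.4% and Bmp4 in 19.7%. The 27 cells with 3 or more (median 2462 UMIs) were more even, with Vwf in 74.1%, Fmo2 in 74.1%, Samd5 in 70.4% and Bmp4 and Cp each in 55.6%.

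The genes did not combine evenly. Of 25 combinations seen, Samd5 with Fmo2 and none of the others was the most frequent, in 40 cells (19 WT, 21 VEGF/LysM). Bmp4 with Cp and Vwf with Fmo2 followed with 8 cells each, and Vwf with Samd5 and Fmo2 with 6. Over all cells that passed the filter, 20 of 59 cells with Bmp4 also had Cp (33.9%), against 1.03% of cells without Bmp4. Of 104 cells with Vwf, 15 had Bmp4 (14.4%, against 0.448% without Vwf), 18 had Cp (17.3% against 1.06%) and 25 had Fmo2 (24.0% against 2.38%). Of 233 cells with Samd5, 57 had Fmo2 (24.5% against 2.08%). A deeper cell detects more of every gene, so the pairs were counted again after thinning to 1000 UMIs. Then 3 of 20 cells with Bmp4 had Cp (15%, against 0.682% without), 8 of 53 with Vwf had Cp (15.1% against 0.618%) and 12 of 78 with Samd5 had Fmo2 (15.4% against 1.51%). The shares were smaller than at full depth, and each pair stayed more frequent in cells with the first gene. From here on the 103 cells are described in 3 sets, drawn up after these combinations and the levels of other genes had been seen: 31 cells with at least 2 of Vwf, Bmp4 and Cp (102189 UMIs), 32 cells with 1 of these together with Samd5 or Fmo2 (113882 UMIs), and 40 cells with Samd5 and Fmo2 only (168661 UMIs).

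**Figure D2:**
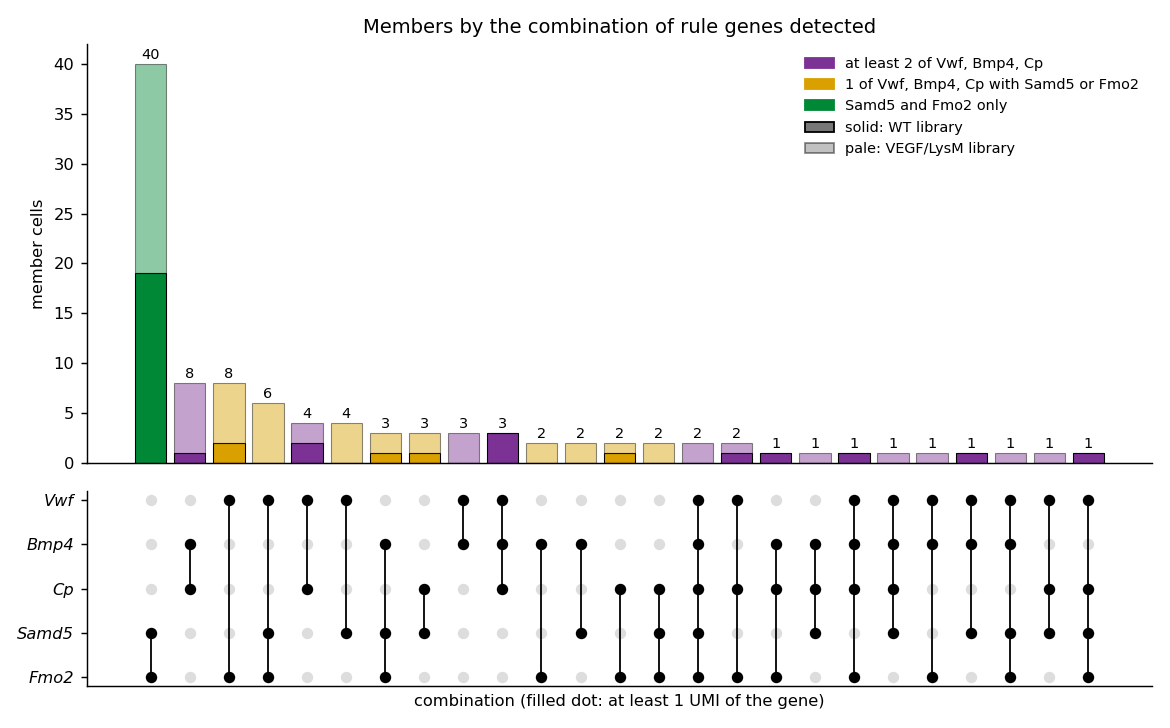
Number of cells (y axis) with each combination of the 5 genes, the dots below marking which were detected; solid bars are WT, pale bars VEGF/LysM, and the colour gives the set. Samd5 with Fmo2 alone accounts for 40 of the 103 cells, and no other combination for more than 8.

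The promoters of 1 gene from each side of this split are printed so that the sequences ahead of a Vwf, Bmp4 and Cp gene and a Samd5 and Fmo2 gene can be read next to each other. They are windows of GRCm38.p6 running from 250 bases before the RefSeq start of the gene to 50 after it, written 5′ to 3′ on the gene's strand, with capitals on the motif found: for Bmp4 at chr14:46390620-46390919 and for Fmo2 at chr1:162898709-162899008, both minus strand. The RefSeq start of Fmo2 lies 32 bases from its start in the coordinates given above.
Bmp4: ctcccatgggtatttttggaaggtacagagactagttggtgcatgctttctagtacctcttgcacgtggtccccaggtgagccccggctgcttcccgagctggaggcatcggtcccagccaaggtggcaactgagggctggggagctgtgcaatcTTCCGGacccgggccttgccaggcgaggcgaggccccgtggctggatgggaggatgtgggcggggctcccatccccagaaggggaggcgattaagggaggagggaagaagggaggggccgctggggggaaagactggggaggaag
Fmo2: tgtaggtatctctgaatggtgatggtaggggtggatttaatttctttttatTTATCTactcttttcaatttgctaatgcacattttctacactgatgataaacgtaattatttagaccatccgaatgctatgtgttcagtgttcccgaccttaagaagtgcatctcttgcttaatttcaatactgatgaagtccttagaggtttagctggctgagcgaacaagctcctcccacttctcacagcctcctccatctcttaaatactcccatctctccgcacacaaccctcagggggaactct
Each window was searched on both strands for 4 motifs. ETS factors bind CCGGAA. The nuclear receptor half-site AGGTCA is of the kind that the venous factor Nr2f2 binds. GATA factors bind AGATAA, and forkhead factors bind GTAAACA. The Bmp4 window held 1 match to CCGGAA and the Fmo2 window 1 match to AGATAA, each on the opposite strand, so that the capitals read as the complement. The windows of Cp and Samd5 held 0 matches. Among 32851 windows of the same length, 14.9% held CCGGAA, 16.3% AGGTCA, 11.2% AGATAA and 3.65% GTAAACA, so a single match is common, and it is no evidence of binding.

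Selp, Ackr1, Vcam1, Bgn, Pcdh7 and Mgp were higher in the 31 cells with at least 2 of Vwf, Bmp4 and Cp than in the other sets. A whole list of vessel-wall matrix genes was nearly even over the 3 sets, at 6322 CPM in the 31 cells, 6252 CPM in the 32 cells and 5692 CPM in the 40 cells, against 4247 CPM in other cells and 7778 CPM in lymphatic-type cells. Selp, the P-selectin of Weibel-Palade bodies (chromosome 1, 164115264 to 164150026, plus strand), had 13 UMIs in 7 of these cells, which is 127 CPM (67.7 to 217.5). It stood at 35.1 CPM in the cells with 1 of the 3 genes, 5.93 CPM (1 UMI) in the cells with Samd5 and Fmo2 only, and 0.437 CPM in all other cells. Ackr1 (chromosome 1, 173331886 to 173333750, minus strand), the atypical chemokine receptor of venules and veins, had 10 UMIs in 5 of the 31 cells (97.9 CPM, 46.9 to 180.0), 1 UMI in the cells with 1 of the 3 genes, and 0 UMIs in the cells with Samd5 and Fmo2 only. Both genes were seen in both libraries, with 5 WT and 8 VEGF/LysM UMIs of Selp and 6 and 4 of Ackr1. The counts are few: 1 cell held 5 of the 10 Ackr1 UMIs, and without it the set stood at 49.7 CPM. The 9824 other cells together held 2 UMIs of Ackr1.

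Vcam1 (chromosome 3, 116109949 to 116129688, minus strand) and Bgn, the small matrix proteoglycan biglycan (chromosome X, 73483602 to 73495933, plus strand), carried more counts. In the 31 cells Vcam1 stood at 391 CPM (280 to 533, in 15 cells), against 202 CPM in the cells with 1 of the 3 genes, 23.7 CPM with Samd5 and Fmo2 only, and 31.1 CPM in other cells. Bgn stood at 842 CPM (673 to 1039, in 24 cells), against 176, 65.2 and 112 CPM. The ratio of the 31 cells to the cells with Samd5 and Fmo2 only was 3.69 on the log2 scale for Bgn (2.78 to 4.74), 4.04 for Vcam1 (2.58 to 5.99) and 4.42 for Selp (1.69 to 9.83), and Ackr1 was at least 5.50-fold higher with 0 set to 3 UMIs. By library, Bgn was at 1584 CPM in the 11 WT cells and 725 CPM in the 20 VEGF/LysM cells, above the other cells in each library. Vcam1 was at 216 and 419 CPM, but its WT value was 3 UMIs of 1 cell, and the other 10 WT cells had 0.

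Pcdh7, a protocadherin adhesion molecule (chromosome 5, 57717967 to 58133230, plus strand) had 86 UMIs in 15 of the 31 cells, 842 CPM (673 to 1039), with 1512 CPM in the WT and 736 CPM in the VEGF/LysM cells. The cells with 1 of the 3 genes held 13 UMIs (114 CPM), the cells with Samd5 and Fmo2 only held 0, and other cells stood at 6.53 CPM. Against the cells with Samd5 and Fmo2 only, Pcdh7 was at least 47.3-fold higher. Mgp, the calcification inhibitor matrix Gla protein (chromosome 6, 136872435 to 136875823, minus strand), followed the same order: 499 CPM (372 to 656, in 15 cells; 504 CPM in the WT and 498 CPM in the VEGF/LysM cells), then 184 CPM (98.7 CPM without the highest cell), then 0, with 27.1 CPM in other cells. Its ratio to the cells with Samd5 and Fmo2 only was at least 28.1-fold.

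Other transcripts of the 31 cells belonged to signalling and the vessel wall. Lepr, the leptin receptor, stood at 352 CPM in the 31 cells, 105 CPM in the cells with 1 of the 3 genes and 17.8 CPM in the cells with Samd5 and Fmo2 only. Ctgf, a matricellular growth factor, stood at 382, 52.7 and 5.93 CPM in the same order, and Edn1, the vasoconstrictor endothelin-1, at 333, 193 (113 without the highest cell) and 35.6 CPM. The cytokine co-receptor Il6st declined less steeply, from 793 to 623 to 326 CPM, all above the 131 CPM of other cells. Of 949 genes measured in the 31 cells (mean of the set's and other cells' level at least 200 CPM), 5.80% were at least 2-fold higher and 5.69% at least 2-fold lower than in other cells. After Pcdh7, the highest ratios among them were those of Ctnnal1 (log2 6.05, 22 UMIs in 10 cells), Myrip (4.67, 9 cells), Sulf1, an extracellular heparan sulfatase (4.34, 10 cells), and Mgp (4.16). The pericyte gene Rgs5 (3.05) was also on this list, but its UMIs came from 2 cells.

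Plvap, the fenestral diaphragm protein, was kept in the 31 cells and low in the rest. It stood at 1341 CPM (1126 to 1585, in 29 of 31 cells), then 465 CPM (16 of 32 cells), then 208 CPM (10 of 40 cells; 134 CPM without the highest), with 963 CPM in other cells. Its log2 ratio between the 31 cells and the cells with Samd5 and Fmo2 only was 2.69 (2.15 to 3.27). Nr2f2, the transcription factor of venous identity, differed less, at 499, 219.5 and 237 CPM (log2 1.07, 0.45 to 1.71), with 435 CPM in other cells. Ephb4, the ephrin receptor of veins, did not separate the sets at this depth, at 235, 228 and 172 CPM (log2 0.45, -0.39 to 1.28).

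**Figure D3:**
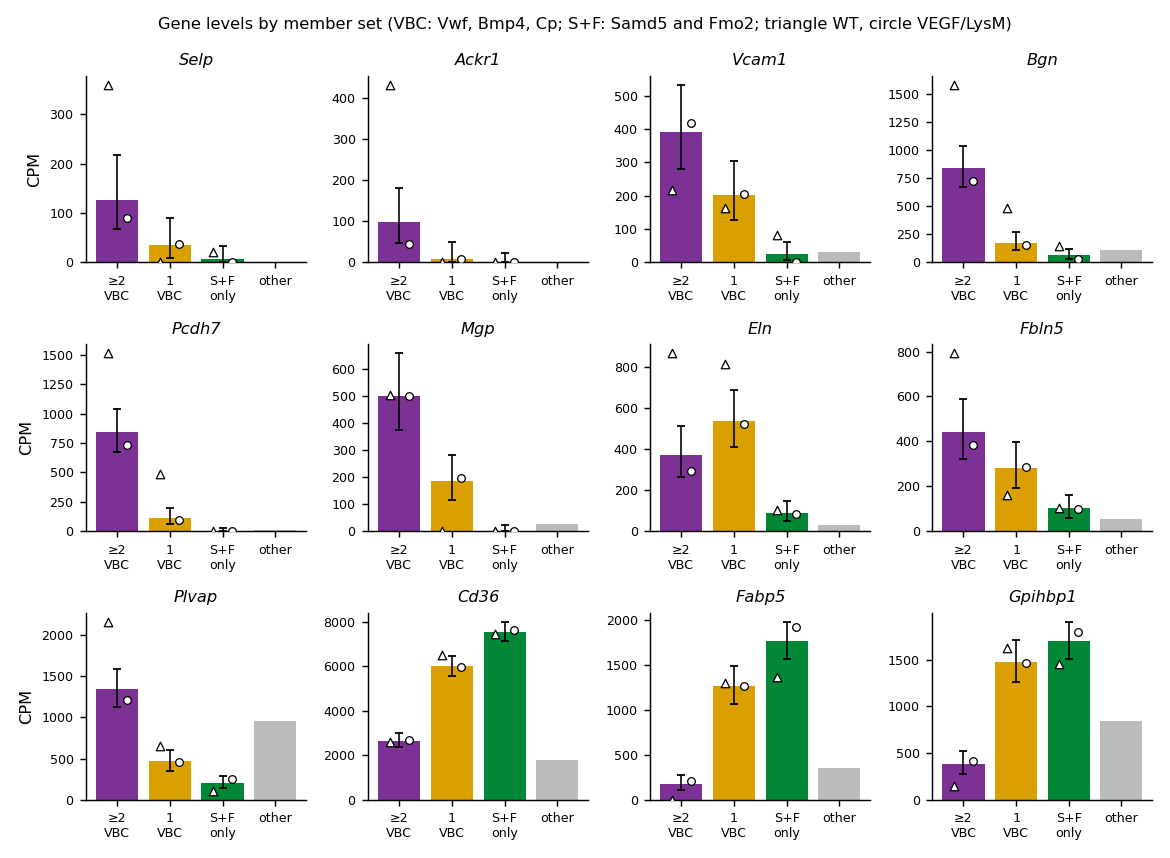
Level (CPM, y axis) of 12 genes outside the rule in the 3 sets and in other cells; bars are both libraries together with exact 95% Poisson intervals, triangles WT and circles VEGF/LysM. Selp, Ackr1, Vcam1, Bgn, Pcdh7, Mgp and Plvap are highest in cells with at least 2 of Vwf, Bmp4 and Cp, while Cd36, Fabp5 and Gpihbp1 reach 7554, 1767 and 1696 CPM in cells with Samd5 and Fmo2 only.

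The 40 cells with Samd5 and Fmo2 only carried the transcripts of fatty acid uptake. Cd36, the fatty acid transporter (chromosome 5, 17781690 to 17888801, minus strand), was found in 40 of 40 cells, at 7431 CPM in the WT and 7604 CPM in the VEGF/LysM cells (7554 CPM in both, 7144 to 7980). It stood at 6006 CPM in the cells with 1 of the 3 genes, 2652 CPM in the 31 cells, and 1789 CPM in other cells. Gpihbp1, which holds lipoprotein lipase at the capillary surface, stood at 1696, 1475 and 382 CPM in the same order, with 844 CPM in other cells. Fabp4 and Fabp5, intracellular fatty acid binding proteins, stood at 17360.3 and 1767 CPM in the cells with Samd5 and Fmo2 only, and at 6263 and 176 CPM in the 31 cells. The 31 cells against the cells with Samd5 and Fmo2 only gave log2 ratios of -1.51 for Cd36 (-1.70 to -1.32), -2.15 for Gpihbp1, -1.47 for Fabp4 and -3.33 for Fabp5. The levels of the 31 cells rested largely on the 4 with the most Cd36, which held 190 of the set's 271 Cd36 UMIs and 510 of its 640 Fabp4 UMIs. The other 27 stood at 1157 CPM of Cd36, 1856 CPM of Fabp4, 114 CPM of Gpihbp1 and 14.3 CPM of Fabp5 (1 UMI). The 4 were picked by Cd36 itself, so a fall in Cd36 was fixed beforehand, and the 27 are not set against other cells. The 4 highest of the 40 cells held 451 of 1274 Cd36 UMIs, and the other 36 stood at 7498 CPM.

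Further genes of continuous capillaries went with them. Car4, the membrane carbonic anhydrase, stood at 433 CPM in the cells with Samd5 and Fmo2 only, 255 CPM in the cells with 1 of the 3 genes and 78.3 CPM in the 31 cells, and the chemokine Cxcl12 at 599, 465 and 166 CPM (68.0 CPM in the 31 cells without the highest). Tcf15, a transcription factor that partners with Meox2 in the endothelium of heart and muscle, stood at 522, 342.5 and 108 CPM, the metalloproteinase inhibitor Timp4 at 539.5, 325 and 88.1 CPM, and the interferon-induced chemokine Cxcl9 at 480.3, 246 and 78.3 CPM. In each of these 5 genes other cells lay between 83.8 and 189 CPM, above the 31 cells or close to them. Of 918 genes measured in the cells with Samd5 and Fmo2 only, 9.26% were at least 2-fold higher and 6.64% at least 2-fold lower than in other cells. Among the higher ones found in 10 or more cells were Kirrel3 (log2 3.47, 12 cells), Eps8 (2.95, 15 cells), Tmem182 (2.87, 19 cells) and Cxcl9 (2.60, 28 cells). Kcnk9, Prlr, Agtr1a and Agtr1b also ranked high, from 1 or 2 cells each.

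The 32 cells with 1 of Vwf, Bmp4 and Cp beside Samd5 or Fmo2 shared features of both sides. Their Cd36 and Gpihbp1 lay near the cells with Samd5 and Fmo2 only (log2 -0.33 and -0.20 against them). Of the elastic matrix genes, Eln, which encodes elastin (chromosome 5, 134702593 to 134747323, minus strand), stood at 536 CPM (410 to 688) against 372 CPM (263 to 510) in the 31 cells, and Fbln2, fibulin-2, at 281 against 284 CPM. In the cells with Samd5 and Fmo2 only these stood at 88.9 and 71.2 CPM. Of 920 genes measured in the 32 cells, 7.07% were at least 2-fold higher and 5.76% at least 2-fold lower than in other cells, led by Eln (log2 4.11), Stmn2, a microtubule-binding stathmin (3.73, 8 cells), and Fbln2 (3.36). Mgp in this set came from 4 cells, and leaving out cells with 2 or more of 8 arterial markers took its log2 ratio from 2.64 to -0.64. The cells of the set were unlike each other. In 1 cell 10 Mgp and 0 Cd36 UMIs were found, and in another 0 Mgp and 72 Cd36 UMIs. A further cell held both sides, with 16 Eln and 32 Cd36 UMIs. The pooled levels are therefore not read as an intermediate cell type.

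The same transcripts were then summed in single cells. The 4 venous genes summed are among those shown above to be highest in the 31 cells. Left out of the sum were Ephb4, which did not separate the sets, and the venous-list gene Aplnr. Aplnr went the other way (log2 -2.70, the 31 cells against the cells with Samd5 and Fmo2 only). The sums show how these transcripts were spread over cells and add no support for the sets. Selp, Ackr1, Vcam1 and Bgn together made up 0 to 0.997% of a cell's UMIs (median 0.163%) in the 31 cells, and were above 0 in 26 of them. They were above 0 in 13 of the 32 cells with 1 of the 3 genes (highest 0.527%) and in 10 of the 40 cells with Samd5 and Fmo2 only (highest 0.149%), with a median of 0 in both sets. Cd36, Car4, Gpihbp1, Rbp7 and Cd300lg together made up 0 to 0.957% in the 31 cells (median 0.184%), 0 to 1.94% in the 32 cells (median 1.02%), and 0.450 to 1.89% in the 40 cells (median 1.14%). The ranges of all 3 sets overlapped in both measures, so the sets are not pure classes.

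**Figure D4:**
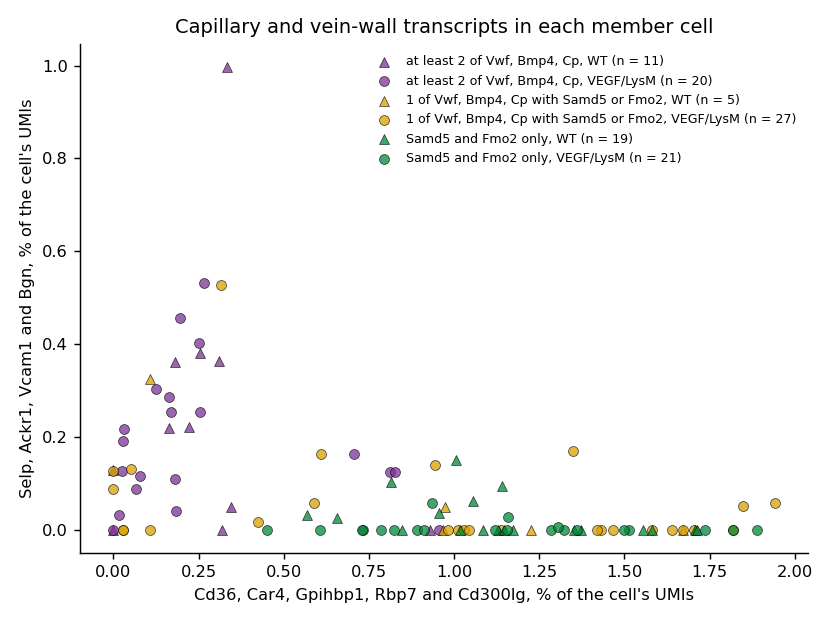
Each of the 103 cells by its capillary transcripts (Cd36, Car4, Gpihbp1, Rbp7 and Cd300lg, % of the cell's UMIs, x axis) and vein-wall transcripts (Selp, Ackr1, Vcam1 and Bgn, % of the cell's UMIs, y axis); colour gives the set, triangles WT and circles VEGF/LysM. The 40 cells with Samd5 and Fmo2 only all lie at 0.450% or more on the x axis, while cells with at least 2 of Vwf, Bmp4 and Cp have a median of 0.184% there and 0.163% on the y axis.

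Other vessel types of the same libraries, none of the 103 cells among them, were set beside the 31 cells. Venular-type cells (411 cells chosen for having both Bgn and Sema3d) had Bgn at 645 CPM and Plvap at 1713 CPM, with Selp at 1.22 CPM, Ackr1 at 0, Pcdh7 at 27.1 CPM and Edn1 at 1.42 CPM. Arterial-type cells (391 cells with at least 3 of Ptn, Tspan8, Lgr5, Npnt, Gja4, Gja5 and Sox17) had Mgp at 232 CPM, Fbln5 at 433 CPM and Edn1 at 292 CPM, against 499, 440.4 and 333 CPM in the 31 cells. They had 0 UMIs of Selp, Ackr1 and Pcdh7, and Nr2f2 at 61.0 CPM. Lymphatic-type cells (20 cells, 47829 UMIs) were the nearest in several genes, with Bgn at 829 CPM, Eln at 998 CPM, Pcdh7 at 393 CPM, Lepr at 393 CPM, Cp at 810 CPM and Vwf at 135 CPM. They had 0 UMIs of Selp, Ackr1, Vcam1 and Edn1, and 1308 CPM of the lymphatic receptor Lyve1. Of the 103 cells, 10 carried 1 lymphatic gene, 8 of them in the set of 31, where Lyve1 stood at 97.9 CPM from 4 cells. Without those cells the Pcdh7 ratio of the set to other cells moved from 6.99 to 6.14 on the log2 scale, and that of Bgn stayed between 2.43 and 3.59 under 12 alternatives. Among the 103 cells, 7 met the arterial-type criterion and 10 carried both Bgn and Sema3d. By a looser count, 2 or more of 8 arterial markers were found in 36 of the 103 cells: 7 of the 31, 12 of the 32 and 17 of the 40. This share was not taken over the other cells, and a deeper cell detects more markers. The 40 cells stood lowest of the sets on the arterial list, at 949 CPM against 1334 CPM in other cells. With no share over the other cells to set beside it, the looser count decides nothing about arterial identity.

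The 103 cells were also compared as one group with the other cells, weighted to the same mix of the libraries. Of 4386 measured genes (mean of both groups at least 50 CPM, the 13 chosen genes left out), 183 were at least 2-fold higher (4.17%) and 164 at least 2-fold lower (3.74%). At least 2-fold higher in each library alone were 131 (2.99%), and lower in each 108 (2.46%). The median log2 ratio of all measured genes was 0.01. The genes named next are the 25 highest and 15 lowest among those of sufficient level, ranked by the smaller ratio of the 2 libraries, and mix the sets described above.

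Genes of the vessel wall led the higher side. After Pcdh7 (257 CPM against 6.53 CPM, log2 5.30, 5.00 to 5.58) came Eln, at 319 CPM in the WT and 291 CPM in the VEGF/LysM cells against 30.5 CPM in other cells (log2 3.28, 3.00 to 3.55), then Mgp (log2 2.79) and Fbln2 (log2 2.86, 2.51 to 3.19). Fbln5, the fibulin that organises elastic fibres, stood at 247 and 244 CPM against 54.6 CPM (log2 2.16). Genes of the cytoskeleton and its anchoring followed: Palld, an actin-bundling scaffold (log2 2.82), Eps8, an actin-capping protein (2.64), Dmd, which encodes dystrophin (2.18), Dst, a spectraplakin (1.94), and the intermediate filament gene Vim (1.73). Eln was detected in 38, Palld in 35 and Vim in 57 of the 103 cells, so that none of these was carried by all of them. Vim was higher still in arterial-type cells, at 665 CPM against 470 CPM in the 103 cells, while Palld, Eps8, Dmd and Dst were lower there.

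Transcription factors formed a second group among the 25. Meox2, a homeobox factor of fatty acid transporting endothelium, stood at 218 CPM in the WT and 336 CPM in the VEGF/LysM cells against 60.1 CPM in other cells (log2 2.39, 2.12 to 2.64). Mecom, a zinc finger factor known from arterial endothelium, was at 1227 CPM against 353 CPM (log2 1.80, 1.66 to 1.93) and present in 77 cells. Dach1, a factor of coronary artery growth, was at 923 CPM against 231 CPM (log2 2.00), and Zfpm2, a GATA cofactor, Casz1 and Zfp521 had log2 ratios of 1.97, 2.00 and 1.89. Their levels followed different sets: Meox2 was at 196 CPM in the 31 cells, 378 CPM in the 32 cells and 344 CPM in the 40 cells, while Zfpm2 was at 225, 96.6 and 113 CPM. Mecom was nearly even, at 1135, 1545 and 1067 CPM. Some of these factors were not particular to the 103 cells. Mecom was at 1530 CPM in arterial-type cells. Zfpm2 and Zfp521 were at 668 and 244 CPM in lymphatic-type cells, against 138 and 166 CPM in the 103 cells. Meox2, Dach1 and Casz1 were lower in arterial-, venular- and lymphatic-type cells than in the 103 cells.

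The remaining higher genes had varied functions. Fmo1, a second flavin-containing monooxygenase, was at 392 CPM in the WT and 374 CPM in the VEGF/LysM cells against 94.3 CPM (log2 2.00, 1.75 to 2.23), in 63 cells. C1qtnf9, a circulating adiponectin paralogue, was at 346 CPM against 79.9 CPM (log2 2.11), and Edn1 at 161 CPM against 33.0 CPM (log2 2.29). Kirrel3, an adhesion molecule (2.97), Unc13b, a vesicle priming protein (2.13), the kinase Nuak1 (1.87), the nucleoside transporter Slc28a2 (1.88), Tmem182 (1.99) and the sulfate donor synthase Papss2 (1.88) complete the 25. Slc28a2, Tmem182 and Papss2 stood at 68.5, 19.6 and 68.5 CPM in the 31 cells and at 356, 296 and 249 CPM in the 40 cells, so the level of these 3 lay mainly in the cells with Samd5 and Fmo2 only. Tmem182 turned to -0.49 when 3 of the 5 genes were required, and Papss2 to -0.81 when the cells were chosen after thinning. Kirrel3 differed between the libraries, at 493.5 CPM in the WT and 133 CPM in the VEGF/LysM cells.

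The lower side was led by Igfbp5. This gene, which encodes an insulin-like growth factor binding protein, was at 305 CPM in the WT and 129.8 CPM in the VEGF/LysM cells, against 2584 and 2078 CPM in the other cells (log2 -3.75, -4.13 to -3.39). Ehd3, an endocytic ATPase known from fenestrated endothelium, was at 143 CPM against 1121 CPM (log2 -2.97, -3.38 to -2.59). All 3 sets lay below the other cells in both genes: Igfbp5 was at 196, 167 and 136 CPM, and Ehd3 at 176, 87.8 and 160.1 CPM, in the order of the sets above. The low Ehd3 was not particular to these cells: arterial-type cells had it at 150 CPM, and venular-type cells at 1253 CPM. Igfbp5 stood at 449 and 992 CPM in these 2 types.

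The muscarinic receptor Chrm3 (log2 -3.03), the adrenomedullin co-receptor Ramp3 (-2.65), the thromboxane receptor Tbxa2r (-2.39), the nitric oxide synthase trafficking gene Nostrin (-2.36) and the growth factor Fgf1 (-2.21) were also lower. So were Dram1 (-3.03), D5Ertd615e (-2.86), Lrrc3b (-2.68), Sgpp1 (-2.32), Ptpru (-2.21) and Gng2 (-2.07). Hapln1, a hyaluronan link protein, had 4 UMIs in all 103 cells (log2 -4.12), with 0 in WT, where the ratio is at most -2.00 with 0 set to 3 UMIs. Ptpru differed among the sets, at 186 CPM in the 31 cells and 26.3 and 17.8 CPM in the others. Arterial-type cells were about as low in Ramp3, at 57.7 CPM against 49.4 CPM in the 103 cells. In Chrm3 and Nostrin they were higher, at 535 and 223 CPM against 135 and 41.6 CPM.

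**Figure D5:**
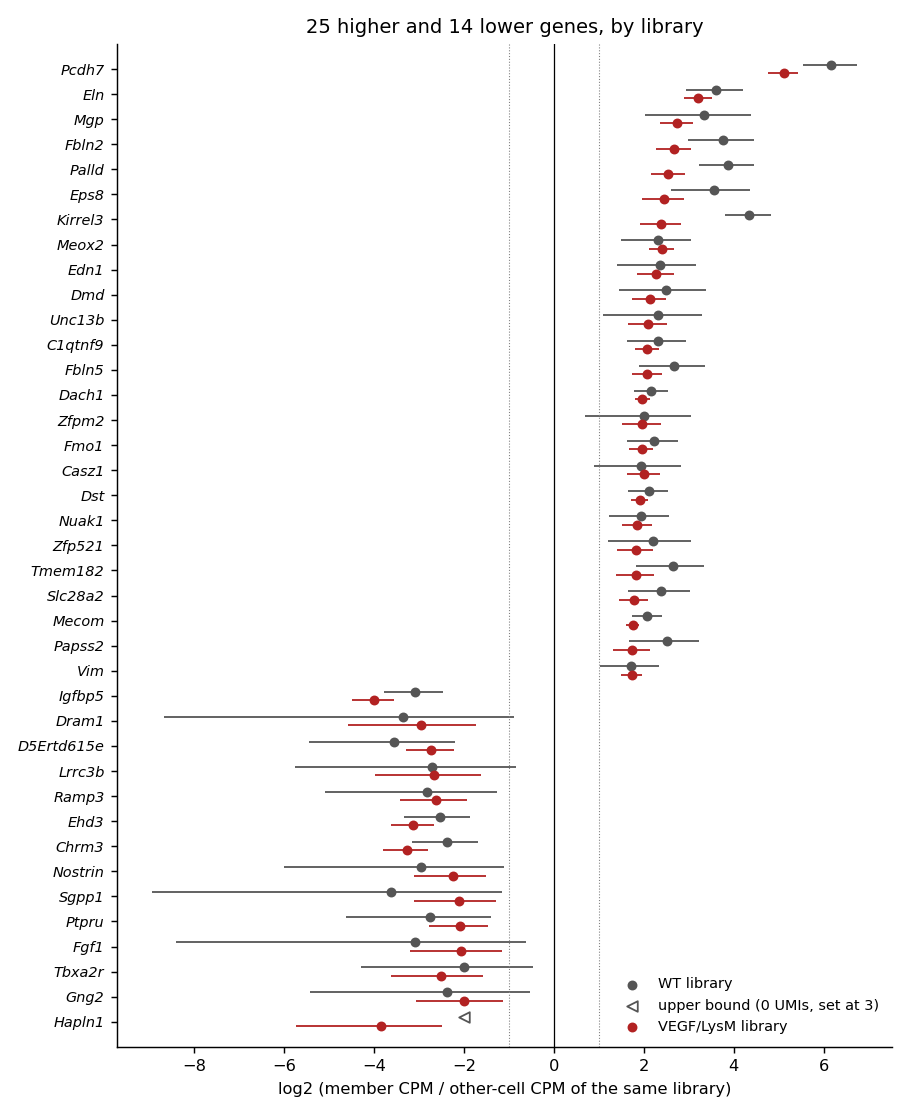
Log2 ratio of the 103 cells to the other cells of the same library (x axis) for the 25 higher and 14 of the 15 lower genes (y axis), with exact 95% Poisson intervals; grey is WT, red VEGF/LysM, the dotted lines mark 2-fold and the open triangle an upper bound. All 25 lie above 2-fold in both libraries, with Pcdh7 at 6.17 and 5.10, and all 14 below it, with Igfbp5 at -3.08 and -4.00.

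Vessel-type lists gave mixed counts for the 103 cells as one group, next to the 4.17% and 3.74% of all measured genes that were higher and lower. Of 11 measured venous genes, 3 were at least 2-fold higher (Vcam1, log2 2.49, Il6st, 2.04, and Bgn, 1.44) and 0 lower, with a median log2 ratio of 0.22. Nr2f2 (-0.53), Ephb4 (-0.22) and Nrp2 (-0.55) lay below 0. Of 10 arterial genes, 4 were higher (Eln, Mgp, Fbln5 and the Notch ligand Jag1, 1.33) and 0 lower (median 0.22), while Sox17 (-0.04), Dll4 (-0.62) and Efnb2 (-0.69) were not. Of 7 genes of fenestrated capillaries 4 were lower (Igfbp3, Esm1, Ehd3 and Tbxa2r; median -1.63) and 0 higher. Of 9 genes of continuous capillaries 4 were higher (Cd36, 1.70, Car4, 1.39, Cxcl12, 1.24, and Fabp4, 1.12; median 0.69). Among 10 pan-endothelial genes Emcn alone passed 2-fold, lower (-1.08), and Cdh5 stood at 0.72 and Pecam1 at 0.36.

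Since Bmp4 was among the choosing genes, the BMP pathway was followed from ligand to target. Bmp6, a ligand that endothelium uses to control hepcidin in the liver, was at 581 CPM in the WT and 456 CPM in the VEGF/LysM cells, against 123 and 156 CPM in the other cells (log2 1.67, 1.46 to 1.88). It was highest in the cells with Samd5 and Fmo2 only (611 CPM), with 421 CPM in the 31 cells and 334 CPM in the 32 cells. Bmp2 had 3 UMIs in the 103 cells (7.80 CPM against 60.6 CPM). Of 7 receptor genes, 0 were at least 2-fold higher and 1 lower, the TGF-beta receptor Tgfbr2 (-1.14); Bmpr2 (0.12), Acvrl1 (0.44) and the co-receptor Eng (0.25) were closer to the other cells. Bmpr2 was at 861 CPM in the 31 cells and 308 CPM in the 40 cells. Of 5 target genes 0 passed 2-fold in either direction (median -0.47), among them Id1 (-0.13), Id3 (-0.47), Smad6 (0.61) and Smad7 (-0.56). The antagonists Nog, Grem1 and Fst had 0 UMIs in the 103 cells, and the BMP-binding Fstl1 stood at 499 CPM in the 31 cells, 342.5 CPM in the 32 cells and 71.2 CPM in the 40 cells.

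The functions of the other choosing genes were followed in the same way. Of 10 measured haemostasis genes 0 passed 2-fold in either direction (median -0.08). The factor VIII gene F8 was at 323 CPM in the 31 cells, 52.7 CPM in the 32 cells and 35.6 CPM in the 40 cells, against 213 CPM in other cells. The anticoagulant receptor Thbd ran at 117, 281 and 178 CPM against 272 CPM. Of 4 genes of iron and copper handling 0 passed 2-fold, and the 1 measured flavin monooxygenase besides Fmo2 was Fmo1. Of 14 matrix genes 5 were higher (Eln, Fbln2, Mgp, Fbln5 and Bgn) and 1 lower (Ltbp1, -1.38).

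Among 11 vessel-type transcription factors 3 were higher (Meox2, Tcf15, 1.30, and Gata6, 1.12) and Maf lower (-2.78). Gata6 was at 225 CPM in the 31 cells, 114 CPM in the 32 cells and 29.7 CPM in the 40 cells, opposite in order to Tcf15. Of 5 VEGF receptor genes 1 passed 2-fold, Flt4 (-1.23), while Kdr stood at -0.60 and Flt1 at -0.85. Of 8 Notch genes Jag1 was higher and Hes1 lower (-1.45), and Jag1 had 0 UMIs in the 35 WT cells. Of 6 adhesion genes Vcam1 passed 2-fold, and the E-selectin gene Sele had 1 UMI in all 103 cells. Of 12 immediate-early genes, which respond to dissociation, 0 passed 2-fold (median -0.35). Of 6 venous valve genes 0 were higher and 2 lower (Itga9 and Flt4), with 1 UMI of Foxc2 and 2 of Prox1.

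Transcripts of other cell types were measured over the whole marker lists. Lymphoid and mesothelial markers had 0 UMIs in the 103 cells, chromaffin and glial markers 1 UMI each, myeloid and platelet markers 4 each, and fibroblast markers 8. All 4 measured MHC class II genes were lower (median -2.41), but other cells include myeloid cells: against endothelial cells alone Cd74 was at -0.22, H2-Aa at -0.11 and H2-Eb1 at 0.23, while H2-Ab1 stayed lower at -2.92 (2 UMIs). Mural markers summed to 69 UMIs, of which 52 lay in the set of 31 and 46 in 1 cell; the smooth muscle gene Acta2 had 0 UMIs.

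Steroid-making transcripts were uneven over the sets. The adrenocortical list stood at 127 CPM in the 31 cells, 123 CPM in the 32 cells and 1257 CPM in the 40 cells, against 170 CPM in the other cells of WT and 255 CPM in those of VEGF/LysM. Of its 239 UMIs in the 103 cells 158 (66.1%) came from 1 cell, and without the deepest cell the 40 cells stood at 373 CPM. The median log2 ratio of the 3 measured steroid genes over the 103 cells was 1.43, and -0.13 without that cell. Haemoglobin transcripts stood at 930, 219.5 and 1814 CPM, against 414 and 641 CPM. In the 31 cells 1 cell held 58 of the 95 haemoglobin UMIs and in the 40 cells 1 cell held 178 of 306, and without these the sets stood at 400 and 779 CPM. The 31 cells stood at 45.4 CPM of the adrenocortical list without its highest cell. The part of this RNA in the other differences between the sets was not tested. Defining transcripts of the 40 cells did not rest on 1 cell: Cd36 was in 40 of 40, Gpihbp1 in 38, Fabp5 in 31 and Cxcl12 in 28.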

How the data were processed

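Single-cell libraries (10x Genomics) were analysed from raw UMI counts per gene and cell, as deposited by the authors and not normalized. Per the submitters' processing notes the authors worked with Cell Ranger 7.0.1, Seurat and the genome mm10; the matrix header names Cell Ranger 7.0.0. Not given in the sources used here are the annotation release and whether intronic reads were counted, which bears on long genes such as Dmd and Pcdh7. The libraries held 6276 WT barcodes (8606348 UMIs) and 3807 VEGF/LysM barcodes (10323972 UMIs), of which the filter left out 142 and 14. No doublets were removed: Scrublet (scanpy 1.11.5) called 0 WT and 3 VEGF/LysM cells by its own threshold, and leaving out the highest scores at 0.8% per 1000 barcodes, which takes 8 of the 103 cells, was an alternative.

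Counts were summed over cells and scaled to CPM. WT had 35 of the 103 cells, under 50, so the libraries were pooled, the other cells were weighted to the same library mix, and the comparison of VEGF/LysM with WT within these cells was not made. A ratio is the observed count over the count expected from the weighted other cells, with an exact Poisson interval of the observed count in place of the conditional binomial interval planned, since a weighted total is not a count. A count of 0 was set to 3 for bounds. Genes were measured from a mean of 50 CPM (200 CPM for the sets) and called from 2-fold. Named genes had at least 100 CPM in both libraries, in the 103 cells for the 25 higher and in the other cells for the 15 lower ones, and were ranked by the ratio nearer to 0. Of the 15 lower genes, 1 is not reported here. The rule, the 31 gene lists and the 3 sets were chosen with earlier results of these data known. Of 54838 features, 54723 matched GENCODE M21 by identifier, the source of gene coordinates. The ratio code was tested on simulated data. Python 3.11.15, numpy 2.4.6, scipy 1.17.1 and matplotlib 3.10.9 were used.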

Additional observations from a re-analysis of the deposited data

How the results depend on the processing

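Both shares moved with the rule: 0.147% of WT and 0.475% of VEGF/LysM cells had at least 3 of the 5 genes, 0.225% and 0.571% qualified after thinning, 0.245% and 1.03% without Samd5 in the rule, and 0.212% and 1% without Fmo2. Leaving out cells with 2 or more arterial markers gave 1.08% in VEGF/LysM. The VEGF/LysM share was the higher one in each of these pairs. For gene ratios, thinning served only to choose the cells (29 cells), and the ratios used all their UMIs. Counts of genes at least 2-fold higher and lower (183 and 164) became 371 and 376 with 3 genes required and 453 and 449 in the cells chosen after thinning. They became 389 and 356 from 20 CPM, 106 and 89 from 100 CPM, and 22 and 34 at 4-fold. Without arterial-marker cells 252 were lower. Fewer cells or lower levels give larger counting error in these counts.

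Of the 40 named genes, 38 kept their direction under all 17 alternatives. Tmem182 reversed with 3 genes required (-0.49) and without Fmo2 (-0.0446), and Papss2 in the cells chosen after thinning (-0.813). Steroid-making genes reversed most often. With 3 genes required Cyp21a1 was at -0.21, Hsd3b1 at -1.75, the list's median at -0.21 and the haemoglobin gene Hba-a2 at -0.11. In the cells chosen after thinning Star was at -0.467, Cyp21a1 at -0.801, Hsd3b1 and the median at -0.735, and Rgs5 at -0.178. Without Samd5 the 3 genes were at -0.823, -0.551 and -0.873 and the median at -0.823; without Fmo2 at -0.477, -0.882 and -2.76 with a median of -0.882; without the deepest cell at -0.133, -0.411 and -0.0607 with a median of -0.133. Hsd3b1 was at -0.43 against depth-weighted other cells. Without arterial-marker cells Rgs5 was at -1.31, Cyp21a1 at -0.865 and Hba-a2 at -0.345. H2-Eb1 was at 0.226 against endothelial cells alone. In the 32 cells with 1 of Vwf, Bmp4 and Cp, Mgp was at -0.58 and Fbln5 at -0.447 with 3 genes required, and Mgp at -0.637 without arterial-marker cells. The cause of these reversals was not tested, except that the deepest cell held 158 of the 239 steroid-making UMIs.

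Some of the 12 alternatives run on the sets changed their cells. The set of 31 fell to as few as 10 cells and the set of 40 to as few as 7, both when cells were chosen after thinning. Over the 12, cells with at least 2 of Vwf, Bmp4 and Cp had log2 ratios to other cells of 6.14 to 8.04 for Pcdh7 and 7.61 to 8.99 for Selp. Their ratios were 2.93 to 4.09 for Vcam1 and 2.43 to 3.59 for Bgn, while Cd36 ran from -0.16 to 0.91. Over 11 of the alternatives (no cell with Samd5 and Fmo2 only is left when 3 genes are required) cells with Samd5 and Fmo2 only had 2.02 to 2.31 for Cd36 and -4.22 to -1.88 for Plvap. The comparison of VEGF/LysM with WT within these cells, and its alternatives, were not run because WT held fewer than 50 of them. No paired analysis was possible because each genotype has 1 library. Depth limits what could be seen: 1 UMI is 9.79 CPM in the set of 31 cells, and a gene at 0 there may reach 29.4 CPM.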
